A study of Mus musculus with 6 samples.

Results

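Acute-phase proteins are plasma and tissue proteins whose synthesis rises during inflammation, and 10 of their genes were followed here: Saa1, Saa2, Saa3, Lcn2, Ptx3, Hp, Orm1, Orm2, Cp and Hpx. They were chosen by name, and each probe set that the array annotation gives to one of them alone was taken, which made 19 of the 45037 probe sets that are no controls and 10 of 18193 named genes. Cp had 8 probe sets, Saa1 and Ptx3 had 2 each, and the other genes had 1 each. The cells were As4.1, a mouse line grown from a kidney tumour that arose in a transgenic animal carrying T antigen under a renin promoter, and used as a model of renin-producing cells. Per the labels, cells received vehicle, hydrogen peroxide or interleukin, with 2 numbered samples and 2 Affymetrix mouse genome arrays in each of the 3 groups. The 2 samples of a group are taken here as separate cultures, which the sample titles do not state. The interleukin, the doses and the times are not given in the sources used here, and the labels name no other agent or allele that separates the groups. The question set by the series is what each treatment changes in the RNA of these cells. Values are MAS5 signals on a linear scale, as deposited, the array software's summary of the brightness of 1 probe set, and levels of different probe sets are not compared.

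In the liver the acute-phase response is driven by interleukin-6 family cytokines through STAT3 and by interleukin-1 and tumour necrosis factor through NF-kappaB, with C/EBP factors acting at many of the promoters. Hepatocytes are the main source of the plasma proteins, while some members are also made locally by stromal, vascular, epithelial and myeloid cells. Serum amyloid A proteins travel on high-density lipoprotein, and in mouse Saa3 is largely made outside the liver. Lcn2 (lipocalin 2) binds iron-carrying siderophores and is released by injured kidney tubules, and Ptx3 is a long pentraxin that marks microbes and matrix for innate immunity. Haptoglobin (Hp) captures free haemoglobin, hemopexin (Hpx) captures heme, ceruloplasmin (Cp) is a copper ferroxidase, and the orosomucoids Orm1 and Orm2 are lipocalin-fold carriers of small molecules.

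With interleukin, probe sets annotated to Saa1, Saa3, Lcn2, Ptx3, Hp and Cp were higher than with vehicle, whereas none annotated to Saa2, Orm1, Orm2 or Hpx passed the test. Of the 2 Saa1 probe sets, 1419075_s_at has a transcript record of Saa2 and is reported below as Saa1 or Saa2. Both interleukin arrays lay above both vehicle arrays for 16 of the 19 probe sets, an order seen in 25.1% of all probe sets, and above all 4 other arrays for 15, an order seen in 12.6%. In a limma fit of every probe set, 12 of the 19 were called higher and 0 lower at an adjusted p of 0.05, where 3.0% of all probe sets were called higher. The median log2 change over the 19 was 3.98, beside 0.04 over all probe sets, but it rests on dim vehicle signals and was 2.77 with 32 added to each signal and 1.67 with signals under the array median raised to it. With hydrogen peroxide the same fit called 3 of 19 higher (Saa3, Lcn2 and Ptx3), where 0.908% of all probe sets were called higher, and the median change was 0.11, beside 0.0018. Both treatments are set against the same vehicle arrays, so their changes share that error. RNA from more cells and more RNA per cell cannot be told apart on these arrays.

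Most members were dim without interleukin: both vehicle arrays were at or under the array's own median signal for 17 of 19 probe sets, and under its lower quartile for 12. The medians were 191.7 to 232.0 and the lower quartiles 47.9 to 69.2 over the 6 arrays. Detection calls were not used here, so a signal in that range is not read as expression. The main fit therefore tested only the 22519 probe sets whose mean log2 signal reached the median (geometric mean signal from 193.7 upward), where 7.58% were called higher with interleukin and 3.05% with hydrogen peroxide. Only the probe sets of Saa3 and Lcn2 and 1 of Ptx3 (1418666_at) passed that filter, and Lcn2 did so only through its interleukin arrays. The other 16 were tested in the fit of every probe set, and for the dim members with the clearest rises 2 further folds are given. These are the fold with 32 added to each signal, and the fold with every signal under its array's median raised to that median, which is a floor.

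**Figure D1:**
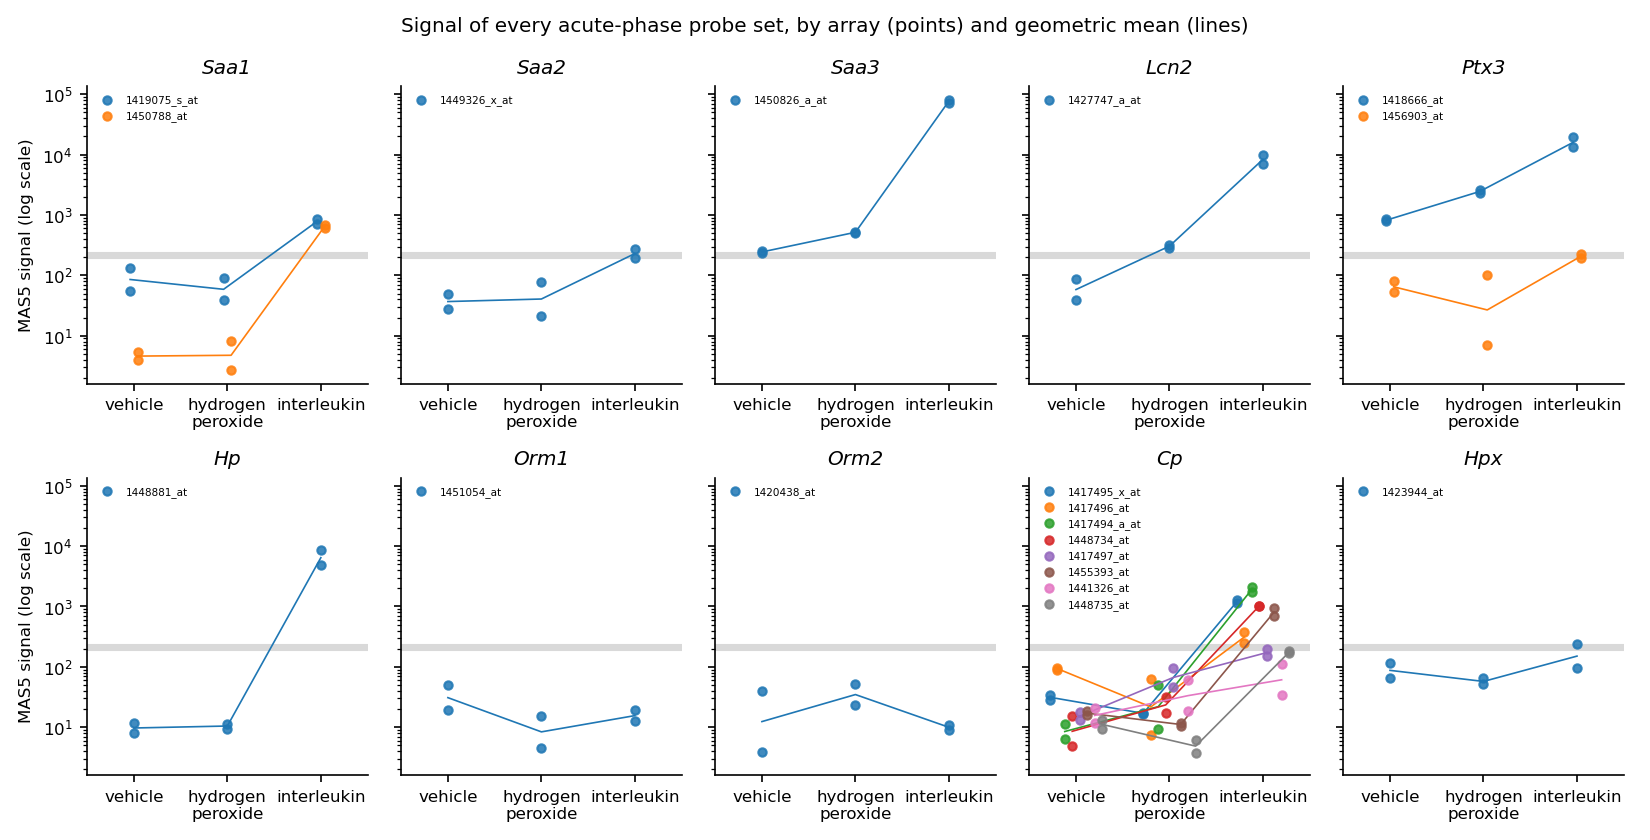
MAS5 signal (log axis) of each of the 19 acute-phase probe sets on the 6 arrays, 1 point per array, coloured by probe set, with lines through the geometric means of the groups and the range of the 6 array medians as a grey band. Interleukin points stand apart above the others for Saa3, Lcn2, Ptx3, Hp, Saa1 and most Cp probe sets, and overlap them for Orm1, Orm2 and Hpx.

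The serum amyloid genes lie side by side on chromosome 7 in the order Saal1, Saa3, Saa4, Saa1, Saa2 and Hps5. RefSeq promoters (build GRCm38.p6, 250 bases before to 50 bases after the start) were found for 8 of the 10 genes. The promoters of Saa1 and Saa2 were 95.35% identical over an alignment of 301 positions, whereas Saa3 was 54.24% identical to Saa1 and 54.02% to Saa2. They are printed to show the near identity of the Saa1 and Saa2 windows beside that of Saa3. Transcripts, which the probe sets target, were not compared. Capitals mark a match to the C/EBP motif TTNNGNAAT, searched on both strands, which lies on the minus strand and begins 183 bases before the start in Saa1 and 184 in Saa2. The motif occurs in 11.46% of 32851 mouse promoters of this length, and no match to it was found in the Saa3 window. Saa1 lies at chr7:46742931-46743230 on the minus strand, Saa2 at chr7:46751583-46751882 on the plus strand and Saa3 at chr7:46715627-46715926 on the minus strand.
Saa1: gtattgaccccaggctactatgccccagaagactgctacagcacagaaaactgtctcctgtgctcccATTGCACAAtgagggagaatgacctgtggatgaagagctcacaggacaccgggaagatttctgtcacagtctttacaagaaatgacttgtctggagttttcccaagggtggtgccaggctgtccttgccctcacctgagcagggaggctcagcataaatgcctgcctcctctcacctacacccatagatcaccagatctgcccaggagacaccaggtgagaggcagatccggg
Saa2: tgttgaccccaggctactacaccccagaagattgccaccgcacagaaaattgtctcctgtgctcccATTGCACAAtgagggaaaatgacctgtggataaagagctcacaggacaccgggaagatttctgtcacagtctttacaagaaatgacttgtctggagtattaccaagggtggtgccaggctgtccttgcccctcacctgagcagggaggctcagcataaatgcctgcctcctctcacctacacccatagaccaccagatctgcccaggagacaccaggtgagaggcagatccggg
Saa3: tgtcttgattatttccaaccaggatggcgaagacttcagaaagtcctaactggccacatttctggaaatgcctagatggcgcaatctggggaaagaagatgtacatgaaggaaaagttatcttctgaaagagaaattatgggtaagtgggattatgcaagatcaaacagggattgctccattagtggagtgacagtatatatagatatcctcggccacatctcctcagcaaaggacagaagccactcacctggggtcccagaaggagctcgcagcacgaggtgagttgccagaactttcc

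Saa3 gave signals of 236.2 and 252.0 on the vehicle arrays, 507.6 and 527.0 with hydrogen peroxide, and 72735 and 81934 with interleukin. The groups did not overlap, and the interleukin arrays stood far above the other 4. The log2 change with interleukin was 8.31 ± 0.13 (SE, n = 2 per group), a 316-fold rise (limma adjusted p = 1.7e-10). With hydrogen peroxide the log2 change was 1.08 ± 0.13, or 2.12-fold (limma adjusted p = 0.00199).

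Saa1 is a liver-type serum amyloid, and its probe set 1450788_at, whose transcript record is Saa1 in RefSeq too, gave 3.9 and 5.4 with vehicle, 8.3 and 2.7 with hydrogen peroxide, and 677.2 and 615.1 with interleukin. The first 4 values were near the bottom of the array range and the last 2 were above the array median. The log2 change was 7.14 ± 1.03, with limma adjusted p = 0.00297 over every probe set. The fold of 141 shrank to 18.5 with 32 added and to 3.18 with the floor, so its size depends on how dim signals are treated. Its second probe set, 1419075_s_at, gave 55.2 and 132.0 with vehicle, 38.3 and 89.9 with hydrogen peroxide, and 716.0 and 859.6 with interleukin. It rose by a log2 change of 3.20 ± 0.61 (limma adjusted p = 0.0126), a fold of 9.19 that became 6.83 with 32 added and 3.87 with the floor. The adjusted p was 0.0954 without vehicle array 1, 0.0920 without interleukin array 1 and 0.106 without interleukin array 2.

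The array annotation names that second probe set Saa1, yet its transcript record belongs to Saa2 in the RefSeq table, and its suffix marks probes that can match several genes. It is therefore reported as Saa1 or Saa2. The probe set annotated to Saa2, 1449326_x_at, carries the same record and a suffix for probes that can cross-match. It gave 48.3 and 28.0 with vehicle, 20.8 and 78.9 with hydrogen peroxide, and 190.3 and 276.9 with interleukin. Both interleukin arrays were the highest, but the log2 difference of 2.64 ± 0.85 did not pass (limma adjusted p = 0.115). Which part of these 2 signals came from Saa1 and which from Saa2 cannot be told apart.

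Lcn2 gave 85.9 and 39.3 with vehicle, 321.5 and 288.6 with hydrogen peroxide, and 9945 and 7014 with interleukin. The 3 groups did not overlap, and both vehicle arrays lay under their array medians. The log2 change with interleukin was 7.17 ± 0.34 (limma adjusted p = 7.85e-07), a fold of 144 that became 91.4 with 32 added and 41.2 with the floor. Since Lcn2 reached the filter only through interleukin, the fit of every probe set is given too, with limma adjusted p = 3.22e-06. With hydrogen peroxide the log2 change was 2.39 ± 0.34 (limma adjusted p = 0.0042, and 0.0125 over every probe set). The fold of 5.24 became 3.67 with 32 added. With the floor it was 1.502 and no longer passed (limma adjusted p = 0.188). In the RefSeq promoters of Lcn2, Saa3 and Hpx no match was found to the kappaB or C/EBP motif, to the STAT motif TTCNNNGAA (in 8.298% of promoters) or to the AP-1 motif TGANTCA (in 7.808%), each searched on both strands. Orm2 held a C/EBP and an AP-1 match, and 1 of the 2 Cp promoters held an AP-1 match.

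Orm1 and Orm2, the other lipocalin-fold members, stayed near the bottom of the array range. Orm1 gave 49.6 and 19.2 with vehicle, 15.2 and 4.6 with hydrogen peroxide, and 19.2 and 12.6 with interleukin. Orm2 gave 39.3 and 3.9 with vehicle, 23.5 and 51.3 with hydrogen peroxide, and 9.1 and 10.9 with interleukin. All 12 values lay under the lower quartile of their array, and the vehicle and interleukin arrays touched for Orm1 and overlapped for Orm2. The log2 differences with interleukin were -0.99 ± 1.13 for Orm1 (limma adjusted p = 0.724) and -0.31 ± 1.28 for Orm2 (0.939), errors wide enough to hide a change of several fold in dim RNA.

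Among the 10 genes Ptx3 alone had a probe set whose vehicle signals were over 3 times the array median. Its promoter is printed because a kappaB motif, the NF-kappaB binding pattern, spans the transcription start, at chr3:66219637-66219936 on the plus strand of GRCm38.p6. Capitals mark overlapping matches on both strands, and a match to this motif occurs in 8.459% of the 32851 promoters.
Ptx3: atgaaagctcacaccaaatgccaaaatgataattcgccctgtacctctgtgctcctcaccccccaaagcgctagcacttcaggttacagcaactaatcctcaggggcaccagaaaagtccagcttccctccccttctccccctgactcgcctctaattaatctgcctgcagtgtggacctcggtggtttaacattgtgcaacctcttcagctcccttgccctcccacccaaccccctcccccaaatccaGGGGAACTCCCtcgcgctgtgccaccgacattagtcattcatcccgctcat

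The Ptx3 probe set 1418666_at gave 782.0 and 858.4 with vehicle, 2281 and 2640 with hydrogen peroxide, and 19488 and 13175 with interleukin. Every array of one group was separate from those of the next. The log2 change was 4.29 ± 0.18 with interleukin, or 19.6-fold (limma adjusted p = 3.21e-07), and 1.58 ± 0.18 with hydrogen peroxide, or 2.99-fold (limma adjusted p = 0.00128). The second probe set, 1456903_at, gave 79.8 and 52.2 with vehicle, 101.9 and 7.0 with hydrogen peroxide, and 190.2 and 223.3 with interleukin. It did not pass in either comparison (limma adjusted p = 0.493 with interleukin and 0.687 with hydrogen peroxide). All 6 of its signals were at or below the array medians, so the 2 probe sets of Ptx3 differ in call but not in the direction with interleukin.

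Hp, the haemoglobin scavenger, gave 11.6 and 8.1 with vehicle, 11.5 and 9.5 with hydrogen peroxide, and 4890 and 8484 with interleukin. Its log2 change was 9.38 ± 0.67 (limma adjusted p = 4.31e-05 over every probe set). The fold of 664 depends on 4 signals near the bottom of the range, and became 155 with 32 added and 31.8 with the floor. It was above that of Saa3 as measured, but below it in both of those settings, where Saa3 was at 279.8 and 316. With hydrogen peroxide the log2 difference was 0.11 ± 0.67 (limma adjusted p = 0.969). RefSeq promoters were not used for Hp or Orm1.

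Hpx, the heme scavenger, gave 65.6 and 116.5 with vehicle, 51.1 and 64.2 with hydrogen peroxide, and 96.2 and 235.7 with interleukin. The vehicle and interleukin arrays overlapped, and the log2 difference of 0.78 ± 0.71 did not pass (limma adjusted p = 0.638).

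Cp is measured by 8 probe sets, of which 6 were called higher with interleukin in the fit of every probe set, where 3.0% of all probe sets were. Probe set 1417494_a_at gave 6.3 and 11.4 for vehicle, 50.5 and 9.5 for hydrogen peroxide, and 1752 and 2091 for interleukin (log2 change 7.82 ± 0.91, limma adjusted p = 0.000867). Probe set 1417495_x_at gave 34.5 and 28.5, then 16.7 and 17.2, then 1123 and 1275 in the same order of groups (5.25 ± 0.64, adjusted p = 0.00117). Probe set 1448734_at gave 4.8 and 15.2, then 17.0 and 32.2, then 1035 and 1007 (6.90 ± 0.87, adjusted p = 0.00133). Probe set 1455393_at gave 18.5 and 15.8, then 11.7 and 10.5, then 701.2 and 936.6 (5.57 ± 0.79, adjusted p = 0.00267). In these 4 the interleukin arrays were all above the array median and the other arrays all far below it, and the folds were 47.7, 19.4, 25.3 and 17.2 with 32 added and 9.44, 5.90, 5.03 and 3.996 with the floor.

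The remaining Cp probe sets were closer to or under the array median on the interleukin arrays. For 1417497_at the signals were 17.7 and 13.0 with vehicle, 46.5 and 95.3 with hydrogen peroxide, and 149.2 and 198.8 with interleukin, and for 1448735_at they were 13.3 and 9.3, then 6.2 and 3.8, then 170.1 and 180.2. Both were called with interleukin (limma adjusted p = 0.0330 and 0.0456), but all of these signals lay under the array medians, and with the floor neither passed (0.456 each). The first was lost without any 1 array except hydrogen peroxide array 1 (adjusted p up to 0.154), and the second without any 1 of the 6 arrays (up to 0.201). Probe set 1417496_at gave 90.1 and 97.1 with vehicle, 7.5 and 62.5 with hydrogen peroxide, and 384.6 and 252.4 with interleukin. It did not pass (limma adjusted p = 0.382), but with the floor it did, at 1.54-fold (0.0038). Probe set 1441326_at gave 11.8 and 20.8, then 59.8 and 18.6, then 33.7 and 110.4, and did not pass (adjusted p = 0.381). All 8, which measure 1 gene, thus had both interleukin arrays above both vehicle arrays, an order seen in 25.1% of all probe sets. Their log2 differences ran from 1.74 to 7.82.

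**Figure D2:**
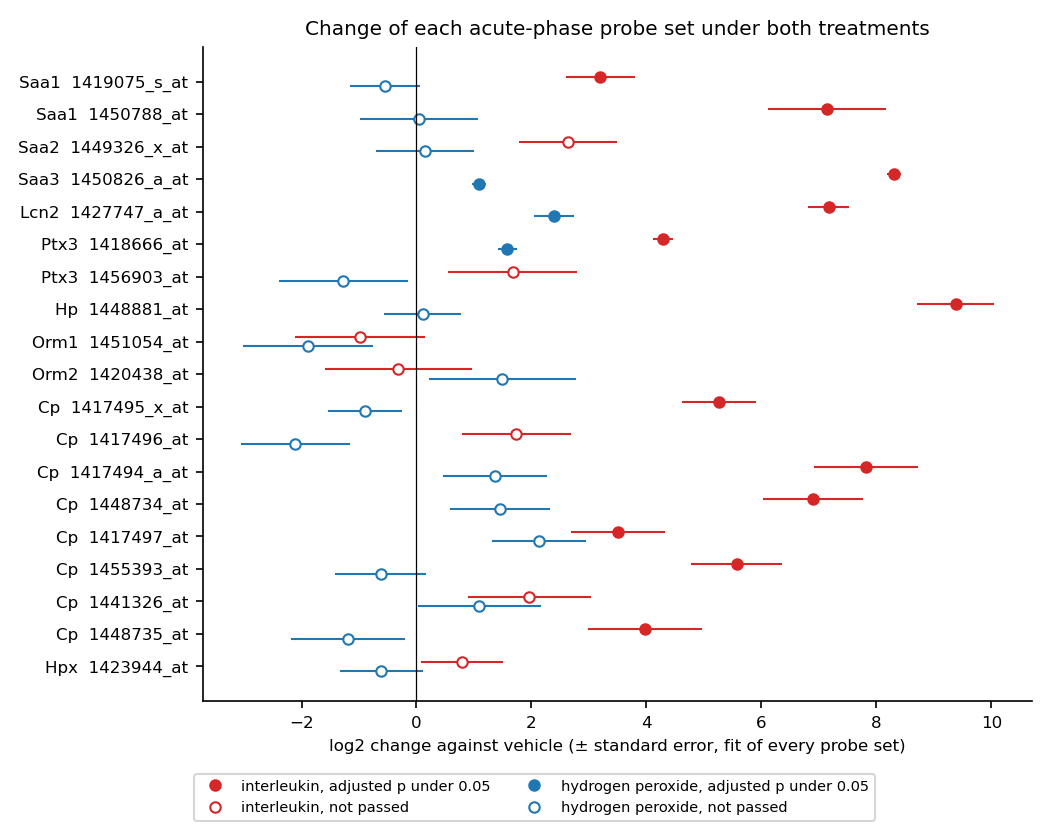
Log2 change against vehicle of each acute-phase probe set with interleukin (red) and hydrogen peroxide (blue), with the limma standard error of the fit of every probe set as bars and filled points where adjusted p was under 0.05. The red point of Hp lies at 9.38 and that of Saa3 at 8.31, while the filled blue points are Lcn2 at 2.39, Ptx3 at 1.58 and Saa3 at 1.08.

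Saa3, Lcn2 and Ptx3 were thus higher with hydrogen peroxide too, but less so than with interleukin. The direct comparison gave log2 differences between interleukin and hydrogen peroxide of 7.22 for Saa3 (149-fold, limma adjusted p = 7.31e-10), 4.78 for Lcn2 (27.4-fold, 1.51e-05) and 2.71 for Ptx3 (6.53-fold, 7.93e-06), where 4.95% of tested probe sets were called higher. Over every probe set the limma adjusted p of Lcn2 was 6.35e-05. With no filter and only the 4 arrays of vehicle and peroxide, the difference between them failed for Saa3 and Lcn2 (limma adjusted p = 0.0959 and 0.0916). With the floor it failed for Lcn2. In the main fit the order of levels was vehicle, hydrogen peroxide, interleukin for Saa3, Lcn2 and Ptx3, and each step passed. Leaving out each array in turn kept their peroxide calls, with adjusted p up to 0.0212, 0.0270 and 0.0169. In the fit of every probe set Saa3 and Ptx3 lost the call without vehicle array 1 (limma adjusted p = 0.0536 and 0.0607), and Lcn2 without vehicle array 2 or either peroxide array (0.0629 to 0.110). Without a variance trend on signal these calls were lost, at limma adjusted p = 0.0515 for Saa3, 0.0824 for Lcn2 and 0.0642 for Ptx3.

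None of the other 16 probe sets passed between hydrogen peroxide and vehicle, and some had errors above 1 on the log2 scale. Both peroxide arrays were above both vehicle arrays in 5 of the 19, where 23.2% of all probe sets were, and below both in 6, where 22.2% were. The log2 differences of the 8 Cp probe sets ran from -2.11 to 2.13 and none passed. Both interleukin arrays were above both peroxide arrays in 16 of the 19, where 22.4% of all probe sets were, and the fit of every probe set called 11 of them, where 2.0% of all probe sets were called higher. Those 11 were annotated to the same 6 genes as against vehicle, and the Hp difference was 9.27 on the log2 scale.

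Distances between log2 signals on 6 arrays, each centred on its vehicle mean, were taken only among the 10892 genes that passed the filter. Dimmer genes, Hp, Saa1 and Cp among them, could not be listed, whatever their distance. The tested genes nearest to Saa3 were Lcn2 (2.65), the cytokine Il6 (3.38) and the chemokine Cxcl5 (3.47). The median distance over all tested genes was 11.8. Nearest to Lcn2 were Cfb (2.56), which encodes complement factor B, Saa3 (2.65) and Il6 (2.89), beside a median of 10.7. Nearest to Ptx3 were Rgs16 (0.84), a regulator of G-protein signalling, Cemip (0.86), which takes part in hyaluronan breakdown, and the alarmin Il33 (1.30), beside a median of 6.42. Cxcl5 gave 65.4 and 73.8 with vehicle, 18.0 and 60.2 with hydrogen peroxide, and 39264 and 36588 with interleukin, so its first 4 signals lay under the array medians and no peroxide difference is read from them. The vehicle signals of Rgs16 (96.9 and 62.1) and Cemip (167.5 and 191.4) were also under the array median, which leaves the size of their changes uncertain. Il33, at 231.6 and 212.0 with vehicle, was above it on all arrays, with log2 differences of 3.64 with interleukin and 1.04 with hydrogen peroxide. These distances describe 6 arrays that share groups, take dim signals as given, and carry no test.

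**Figure D3:**
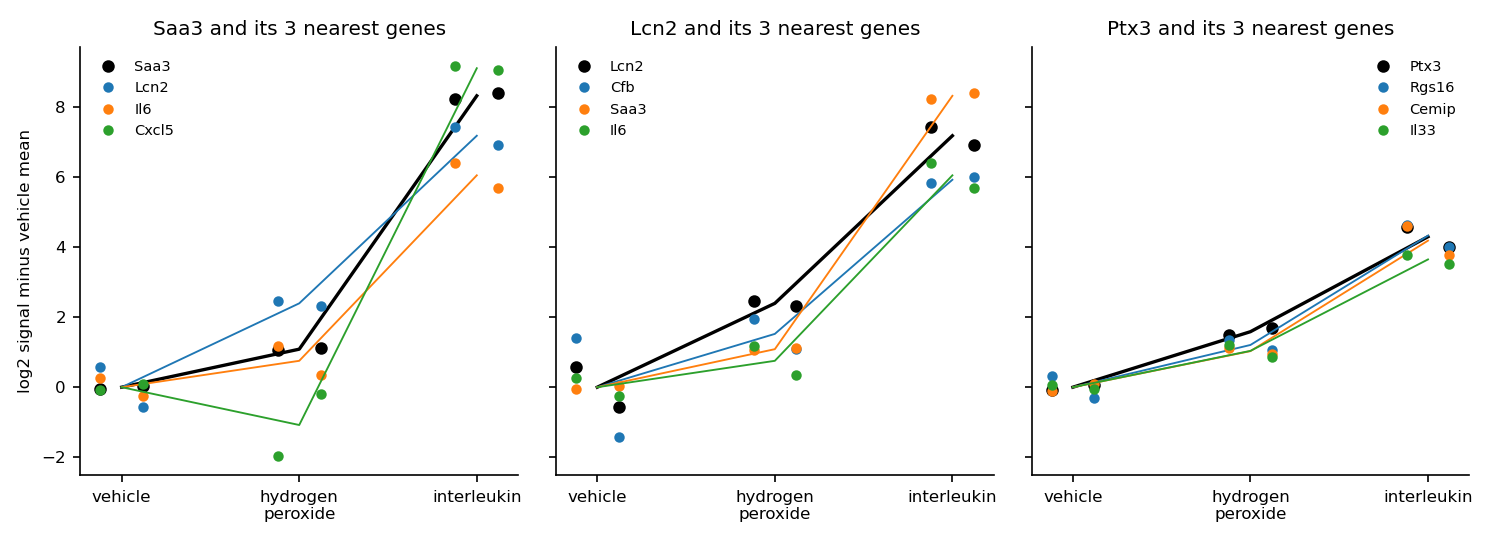
Log2 signal minus the vehicle mean on each of the 6 arrays for Saa3, Lcn2 and Ptx3 (black) and the 3 tested genes nearest to each. Lines run through the group means. The Ptx3 set lies close together in all 3 groups, and the vehicle signals of every neighbour except Saa3 and Il33 are under the array median.

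Other acute-phase genes were read from a list of 21, of which 19 had a probe set annotated to 1 gene alone (C3 and C4b had none). Of the 19, 6 were bright enough for the main fit. With interleukin 5 of those 6 rose and 0 fell, with a median log2 change of 3.22 beside 0.03 over all tested genes, of which 9.78% were called higher and 6.61% lower. Lbp and Cfb were above the array median on 2 and 3 of the 6 arrays, and so reached the filter through interleukin. The metallothionein Mt2, which binds zinc and copper, went from 963 ± 11.7 (SD, n = 2) to 14627 ± 2158 (limma adjusted p = 1.55e-07), and Mt1 from 1500 ± 74.4 to 6631 ± 1959 (3.91e-05). Lbp, which hands lipopolysaccharide to CD14, went from 144 ± 29.3 to 2527 ± 132 (2.3e-05). Serping1, the complement C1 inhibitor, went from 437 ± 19.7 to 2519 ± 72.2 (1.15e-05), and Cfb from 77.2 ± 82.0 to 3074 ± 248 (0.000378). With hydrogen peroxide 4.08% of tested genes were called higher and 2.91% lower. Of the 6, 0 rose, and the protease inhibitor A2m fell from 1728 ± 222 to 624 ± 76.0 (limma adjusted p = 0.0118).

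Without the filter, 8 of the 19 listed genes were called higher with interleukin, where 4.65% of all named genes were. They included 3 picked out after their values were seen: Saa4, the gene between Saa3 and Saa1, at 52.5 ± 14.8 with vehicle and 1346 ± 167 with interleukin (limma adjusted p = 0.00096), the protease inhibitor Serpina3n at 17.6 ± 2.47 and 2053 ± 82.0 (0.000101), and the metalloreductase Steap4 at 15.5 ± 0.071 and 2365 ± 119 (0.000927). Crp, Apcs, the fibrinogen genes Fga, Fgb and Fgg, the inter-alpha-inhibitor genes Itih3 and Itih4, and Orm3 were under the array median on every array. Negative acute-phase genes fall in the liver during inflammation. Of 7 with a probe set annotated to 1 gene alone, only the retinol carrier Rbp4 was bright enough to test. It was higher with interleukin, at 2538 ± 249 against 1752 ± 29.0 (log2 change 0.53, limma adjusted p = 0.0221).

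Of 26 tested inducers and signalling genes of the response, 10 rose, 2 fell (Jak1 and Nr3c1) and 14 did not pass with interleukin, with a median log2 change of 0.45, where 9.78% of tested genes were called higher and 6.61% lower. In the fit of every probe set 9 of the 29 listed genes with a probe set annotated to 1 gene alone were called higher and 2 lower. There 4.65% of all named genes were called higher. Jak1 and Nr3c1 are named because they were the 2 that fell. Il6 itself went from 112 ± 27.4 to 7485 ± 2500 (limma adjusted p = 1.85e-06), but was above the array median on 3 of the 6 arrays and reached the filter through interleukin (9.47e-06 over every probe set). The C/EBP factor Cebpd went from 2947 ± 71.3 to 26583 ± 2434 (1.55e-07), Nfkbiz, a nuclear cofactor of NF-kappaB, from 4386 ± 199 to 29013 ± 4643 (3.61e-07), and the STAT3 feedback inhibitor Socs3 from 3315 ± 41.7 to 10816 ± 604 (4.25e-06). With hydrogen peroxide 0 rose and 2 fell, where 4.08% of tested genes were called higher and 2.91% lower. The 2 were the shared receptor subunit Il6st (log2 change -0.45, limma adjusted p = 0.0179) and the interleukin-1 receptor Il1r1 (-0.61, 0.0361). In the fit of every probe set Il1r1 was lost. The median change with hydrogen peroxide was -0.14, beside 0.06 over all tested genes. Cebpd, Nfkbiz and Socs3 were at -0.34, 0.17 and -0.10 there, and did not pass.

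Of 13 tested receptors and binding partners of these proteins, 6 rose with interleukin, 0 fell and 7 did not pass, with a median log2 change of 0.30, where 9.78% of tested genes were called higher. In the fit of every probe set, where 4.65% of all named genes were called higher, 5 of the list were. They included Tlr2, a pattern receptor that serum amyloid A can engage, at 329 ± 53.2 with vehicle and 1154 ± 295 with interleukin (limma adjusted p = 0.000943), and the iron transporter Slc11a2 at 2488 ± 133 and 5172 ± 28.1 (0.000362). Tnfaip6, a hyaluronan-binding partner of Ptx3, was at 2165 ± 345 and 4027 ± 182 (0.0021). P2rx7, an ATP-gated channel, rose in both treatments, from 638 ± 65.3 to 1484 ± 354 with interleukin (0.00223) and 1552 ± 92.5 with hydrogen peroxide (0.00524). Hmox1, which degrades heme, rose with hydrogen peroxide from 2071 ± 40.7 to 3308 ± 50.4 (0.0112) and was at 2483 ± 97.9 with interleukin (0.174). The haptoglobin-haemoglobin receptor Cd163 and Lrp2, a receptor of lipocalin 2, were above the array median on 0 of 6 arrays. Slc22a17, another lipocalin 2 receptor and named here outside the naming rule, was above it on 6 of 6. It was at 750 ± 173 with vehicle, 697 ± 7.64 with interleukin (limma adjusted p = 0.820) and 772 ± 0.778 with hydrogen peroxide (0.897).

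**Figure D4:**
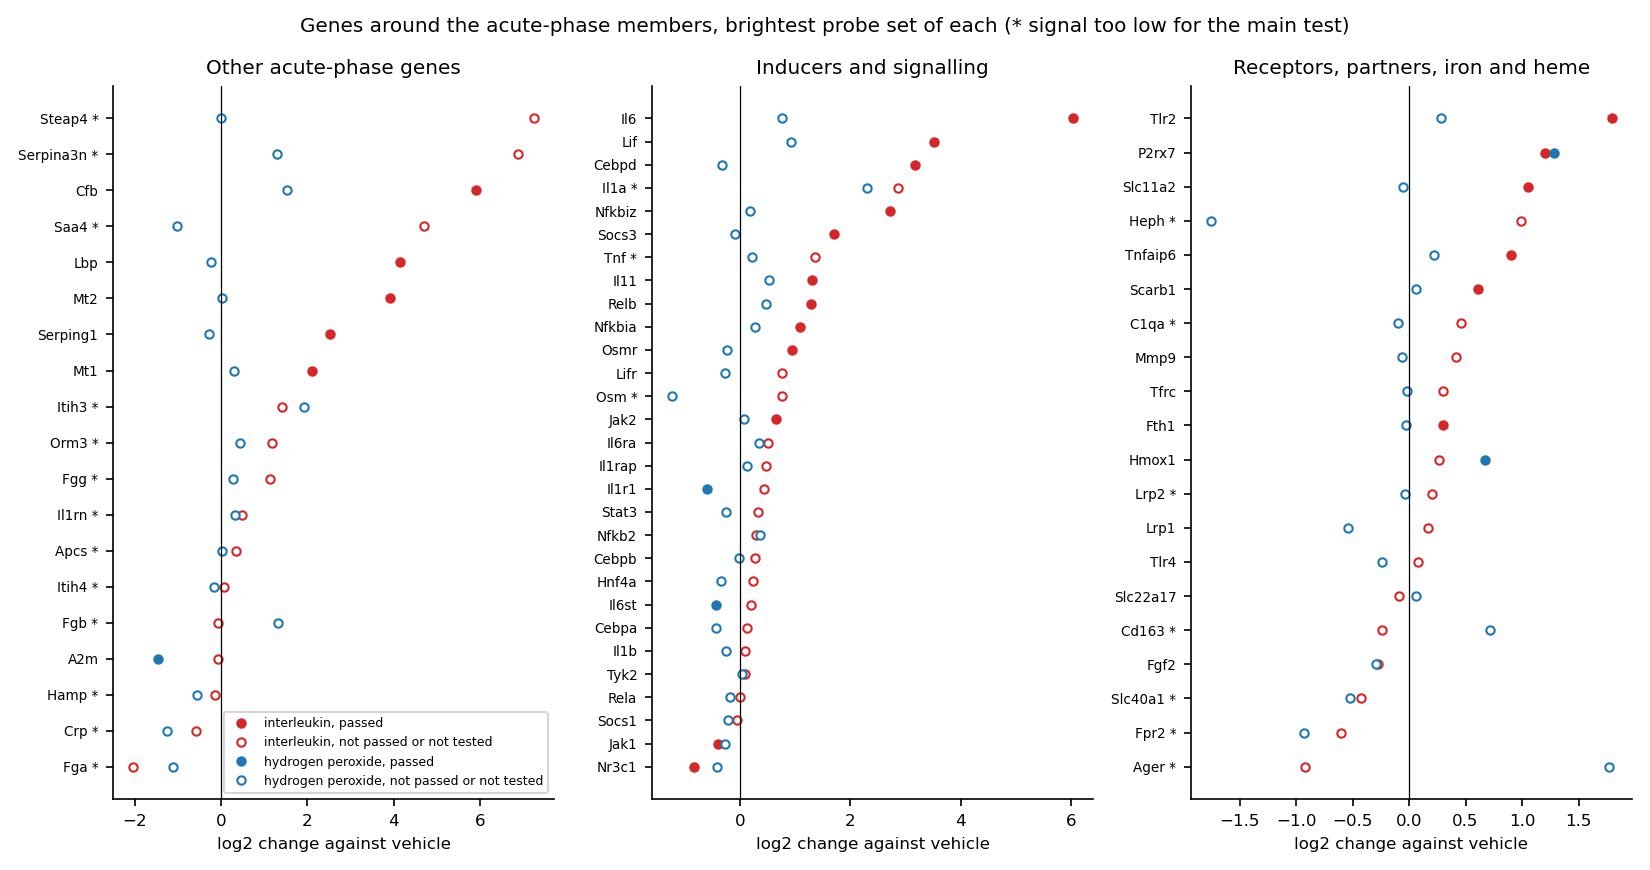
Log2 change against vehicle in 3 lists, for the listed genes with a probe set annotated to 1 gene alone. Interleukin is red and hydrogen peroxide blue, with 1 point per gene and treatment. Points are filled where the main test passed, and genes are starred where the signal was too low for it. Filled red points of the other acute-phase genes reach 5.91 for Cfb, and the filled blue point of that list is A2m at -1.47.

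Markers of other cells were read beside these rises. Hepatocyte markers were above the array median on all arrays for 0 of 10 genes and on no array for 9, with summed signals of 561.4 and 650.9 with vehicle and 734.0 and 803.2 with interleukin. Of 9 macrophage and leukocyte markers, Cd14, Cd68 and Csf1r were above the median on all arrays, while Ptprc, Itgam, Tyrobp, Lyz2 and Fcer1g were above it on none. Their summed signal was 3873 and 4002 with vehicle, 4865 and 4589 with hydrogen peroxide, and 6606 and 7632 with interleukin, where Cd14 and Cd68 rose (limma adjusted p = 0.0013 and 0.00851). With hydrogen peroxide Cd68 rose too, from 389 ± 48.9 to 799 ± 3.54 (limma adjusted p = 0.0419), beside the peroxide rises of Saa3, Lcn2 and Ptx3. In the fit of every probe set this Cd68 call was lost (limma adjusted p = 0.0930). Of 8 neutrophil markers Mpo alone was above the median on all arrays and 5 were above it on none. The 8 summed to 1058 and 1223 with vehicle and 1775 and 2662 with interleukin. Camp, picked out after its values were seen, went from 26.9 ± 14.1 to 952 ± 226 (limma adjusted p = 0.0017 over every probe set). Epithelial and tubule markers summed to 1609 and 1688 with vehicle and 1240 and 1548 with interleukin, with 1 of 10 above the median throughout. Endothelial markers had 1 of 6 above it throughout, Kdr, which fell with interleukin from 14462 ± 1736 to 9641 ± 2224 (limma adjusted p = 0.0194), and adipocyte markers had 0 of 3.

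Of 13 renin-lineage and mural markers 6 were above the median on all arrays, while Rgs5, Myh11 and Gja5 were above it on none. With interleukin 4 of the 7 tested rose (Pdgfrb, Acta2, Notch3 and Tagln, at log2 changes of 0.56 to 1.56) and 1 fell (Foxd1, at -0.60, limma adjusted p = 0.0257). Among all tested genes 9.78% were called higher and 6.61% lower. With hydrogen peroxide Notch3 rose (1.51), and Kcnj8 (-1.65) and Foxd1 (-0.98) fell, where 4.08% of tested genes were called higher and 2.91% lower. Foxd1 is named because it was among those that fell. Renin itself was not analysed here. The ratio of 3' to 5' signal of the Actb control, a sign of RNA integrity, was 1.22 and 1.26 with vehicle, 1.35 and 1.32 with hydrogen peroxide, and 1.46 and 1.55 with interleukin. That of Gapdh was 0.825 to 0.873 on all arrays, and that of Tfrc 1.85 and 2.14 with vehicle, 3.54 and 2.30 with hydrogen peroxide, and 3.05 and 3.95 with interleukin. The part of the marker changes and of these ratios in the rises was not tested.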

How the data were processed

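RNA of 6 As4.1 samples, 2 in each of 3 groups and taken as separate cultures, was measured on Affymetrix arrays. The authors deposited linear intensities, which are MAS5 signals per the submitters' processing notes. The number of arrays limits the precision, since each group's spread rests on 2 samples.

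Of 45101 probe sets 64 controls were left out. Gene symbols of the array annotation were updated with RefSeq, where 34741 of 34945 probe sets with 1 symbol were matched, while 932 had several and 9160 had none listed. Signals were log2 transformed with no pseudocount. limma 3.58.1 in R 4.3.3 was fitted to all 6 arrays with a variance trend, with Benjamini-Hochberg adjustment over every probe set tested and a threshold of 0.05. The fitted log2 changes gave the folds. The script was tested on simulated data, with changes planted only in probe sets above the median signal, so that test does not bear on the dim members. For a listed gene the brightest probe set annotated to it alone was used. All member probe sets are named, with per list up to 4 genes of smallest p with interleukin and 2 with hydrogen peroxide. The 3 tested genes nearest to each called member of the filtered fit are named too. Genes named outside this rule are said to be so or given only as counts or as under the array median. The members and the 11 lists were chosen with earlier results of these data known. Alternatives covered scaling, pseudocount, filter, trend, arrays used, replicate block and probe sets that can match several transcripts.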

Additional observations from a re-analysis of the deposited data

How the results depend on the processing

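No called result turned its direction. With the filter removed, 12 members were called with interleukin and 11 between the treatments in place of 3, and 762 probe sets in place of 1282 with hydrogen peroxide. Without a variance trend the calls over all probe sets were 1783 with interleukin (3627 with it), 57 with hydrogen peroxide (1282) and 716 between the treatments (1987), and 0 members were called by limma with hydrogen peroxide, where 3 had an unadjusted p under 0.05. With neither filter nor trend the called members were 4, 0 and 2 in that order of comparisons (13, 7 and 14 at an unadjusted p under 0.05), and the 4 were Saa3, Hp and 2 Cp probe sets. Dropping the probe sets with a suffix for several transcripts removed Saa3 and Lcn2, so 1 member was called in each comparison, with 825 probe sets with hydrogen peroxide. With only the 4 arrays of the compared groups and no filter, 1 member was called with hydrogen peroxide. Leaving out each array in turn gave 1554 to 3583 calls over all probe sets with interleukin, 235 to 1751 with hydrogen peroxide and 839 to 1919 between the treatments, the lowest coming without vehicle array 1 in the first 2 and without hydrogen peroxide array 2 in the last. Counts also fell by over 1.5 times without vehicle array 2 (1573 and 265) and, for hydrogen peroxide, without its array 1 (391) or 2 (675). The 3 members of the filtered fit kept their calls throughout, and with no filter 9 to 11, 1 to 3 and 7 to 11 members were called, with 1 for hydrogen peroxide without vehicle array 1 and 7 between the treatments without either interleukin array. With hydrogen peroxide, centring on the 75th percentile gave 602 higher and 879 lower calls against 686 and 596. The labels number the samples 1 and 2 in each group, but the deviations of same-numbered samples correlated at 0.107, 0.0535 and -0.129, so the numbers were not taken as pairs. With the replicate block the counts were 3342, 1170 and 1756, with 3 members in each. Alternatives with no filter other than that setting itself, and the floor, were chosen after seeing the data. The causes were not tested, except that fewer probe sets or arrays enter where some are left out. Signals under the array median limit every fold quoted against vehicle for Hp, Cp, Saa1, Saa2 and Lcn2.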
